A study of Caenorhabditis elegans with 2 samples.

Results

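The actin genes act-1, act-2, act-3, act-4 and act-5 of Caenorhabditis elegans are described here in a chromatin immunoprecipitation and sequencing (ChIP-seq) experiment on the protein ZK546.5. They were taken by name from the Ensembl annotation of genome build ce11 (WBcel235), in which they are 5 of 19985 protein-coding genes. Actin is the globular protein that polymerises into the thin filaments of muscle, the cell cortex and the core of microvilli. In the nematode, act-1 to act-4 encode conventional actins of muscle and other cells, while act-5 encodes the actin of the microvilli on the apical surface of the intestine. Actin is folded with the help of the chaperonin CCT and the prefoldin complex, and its filaments are started, capped and crosslinked by a large set of other proteins. The sources used here do not state which conventional actin is broad and which is mainly muscular, so the genes were grouped as the act-1, act-2 and act-3 cluster, act-4, and act-5.

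Chromatin came from whole L3 larvae of strain OP231, of mixed sex and unknown age, with the genotype unc-119(ed3) III; wgIs231, in which ZK546.5 carries a C-terminal GFP-FLAG tag. The 2 biological replicates formed 1 group with no second condition, so no comparison between conditions was possible, and no test was made on the 5 genes. Calls from whole animals cannot be assigned to muscle, intestine or any other tissue, and the promoter that drives the transgene is not given in the sources used here. Each replicate had a list of 30000 calls, as did the pooled data. The submitters' thresholded set held 261 peaks. A call has a summit and a signal value, the peak caller's own measure of strength, and rank 1 is the strongest call of a list. Read counts were not in the files, so depth is unknown.

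None of the actin genes had a thresholded peak. Within 1000 bp of an annotated 5′ end, 0 of the 5 genes had such a summit, against 285 of all 19985 protein-coding genes (1.43%), so a count of 0 among 5 lies near the background. The nearest thresholded summit was 37660 bp from act-5, between 177123 and 183677 bp from the cluster genes and 751342 bp from act-4. The strongest 1000 pooled calls, which reach 3.76% of coding genes, also included no actin gene. What was seen at these loci came from the weaker part of the lists, where bound sites and background are not separated.

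Weaker pooled calls were present at act-3, act-4 and act-5 and absent at act-1 and act-2, of which act-2 had a call in replicate 2 alone. In the pooled list 3 of 5 actin genes had a summit within 1000 bp, beside 48.9% of all coding genes. By chromosome that share was 54.7% on III, where act-5 lies, 45.8% on V and 47.5% on X, where act-4 lies. In the single lists 3 of 5 had one in replicate 1 (49.6% of coding genes) and 4 of 5 in replicate 2 (49.1%). The genes with one in both replicate lists were act-3, act-4 and act-5, which is 3 of 5, against 28.5% of coding genes. Having a weak call was therefore common over the whole annotation.

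Among the genes of the cluster, act-3 had the most repeatable call. The gene act-3 (WBGene00000065) lies on the reverse strand of chromosome V from 11071690 to 11074498. Its pooled call had its summit at 11075152, in intergenic sequence 654 bp upstream of the annotated 5′ end, with a signal of 26.4 and rank 2935. The 5′ end of a non-coding RNA gene, T04C12.21, was nearer, at 493 bp. In replicate 1 the summit was 651 bp upstream with a signal of 17.1 and rank 3636. In replicate 2 it was 524 bp upstream with a signal of 12.7 and rank 4908. The ranks in the single replicates differed 1.35-fold, less than the median of 2.88-fold over pooled calls of ranks above 1000 and up to 6000 that were matched in both lists. In the pooled list 8.06% of coding genes had a call of this rank or stronger, and the shares were 8.89% in replicate 1 and 12.1% in replicate 2.

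The strongest call in the cluster lay beyond the 1000 bp limit, between act-3 and act-2. These genes run in the same direction with 2278 bp between them. The pooled summit at 11076208 was intergenic, 1710 bp upstream of act-3, with a signal of 30.7 and rank 1433. It was nearer to the 5′ end of the non-coding RNA gene T04C12.15, at 243 bp, than to that of any actin gene. In replicate 1 its signal was 26.6 at rank 369, and in replicate 2 a call within 200 bp had a signal of 8.73 at rank 14883. The ranks thus differed 40.3-fold between the replicates, above the 90th percentile of 14.0-fold for pooled calls of ranks above 1000 and up to 6000. For comparison, the last of the 261 strongest calls had a signal of 29.4 in replicate 1 and 31.9 in replicate 2. The call was thus near the strongest calls of replicate 1 and far below those of replicate 2.

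At the other end of act-3 a pooled summit lay at 11071597, 93 bp beyond the annotated 3′ end, with a signal of 29.7 and rank 1682. Its nearest annotated 5′ end was that of the piRNA gene 21ur-13032, at 73 bp. The matched calls had a signal of 18.8 and rank 2293 in replicate 1, and 8.18 and rank 17301 in replicate 2. Here too replicate 1 was the stronger, with ranks 7.55-fold apart.

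The stretch that holds act-2 and act-1 had no pooled call. The gene act-2 (WBGene00000064, chromosome V, reverse strand, 11076777 to 11078154) and act-1 (WBGene00000063, forward strand, 11081052 to 11082415) diverge from 2897 bp of shared upstream sequence. No pooled summit lay between 11076208 and 11085767, a stretch of 9559 bp. Stretches at least this long made up 5.91% of the 29968 between neighbouring pooled summits, whose median was 2049 bp. This share counts stretches. A given gene falls more often into a long stretch than into a short one, so the share of genes in such stretches is larger, and it was not computed. A call 333 bp upstream of act-2 appeared in replicate 2 with a signal of 7.27 at rank 21952, and its summit lay in an exon of the non-coding gene T04C12.18, 4 bp from the 5′ end of another, T04C12.24. It had no counterpart within 200 bp in replicate 1 or in the pooled list. The gene act-1 had no call within 1000 bp in any list. Over the cluster with 1000 bp on each side, 12726 bp in all, there were 3 pooled summits, or 0.236 per kb, compared with 0.299 per kb over the nuclear chromosomes.

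**Figure D1:**
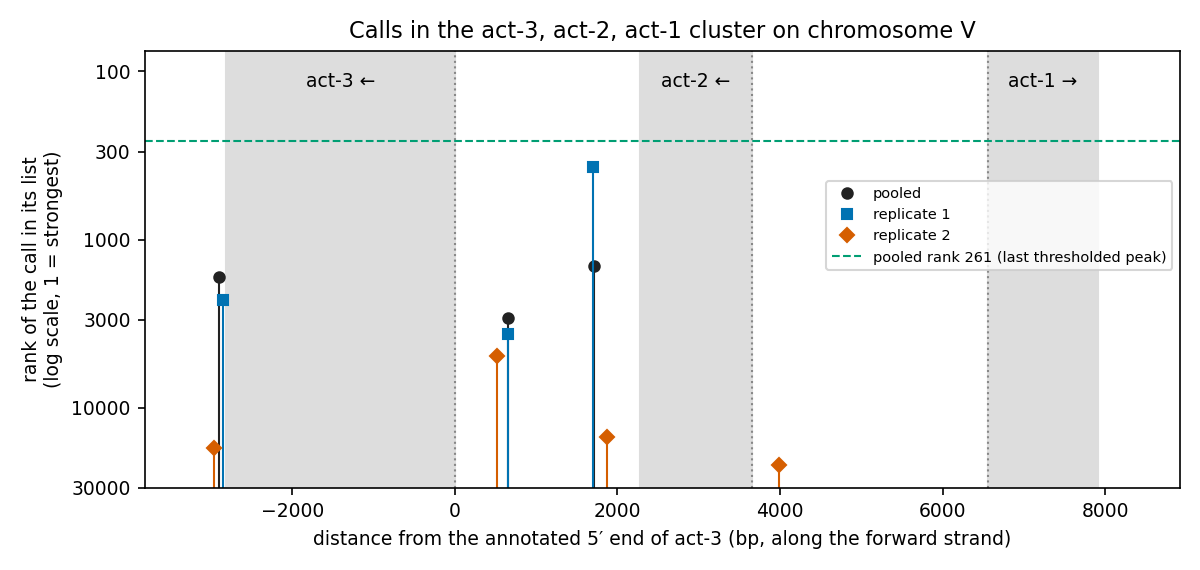
Calls in the act-3, act-2, act-1 cluster, by distance from the annotated 5′ end of act-3 along the forward strand (horizontal, bp) and by rank within the list (vertical, log scale, strongest at the top); grey blocks are genes, arrows give their direction and dotted lines mark 5′ ends. The call 654 bp upstream of act-3 has like ranks in the pooled list and both replicates, the call 1710 bp upstream has rank 369 in replicate 1 and 14883 in replicate 2, and no pooled call stands at act-2 or act-1.

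To show what lies under the cluster calls, 200 bases around the summits of ranks 2935 and 1433 are given from the RefSeq sequence of ce11, on the strand of act-3 and in 5′ to 3′ direction. They are chrV:11075052-11075251 and chrV:11076108-11076307, both on the reverse strand. Capitals mark the searched words, which were TGATAA, the core of sites bound by GATA factors, CAGCTG, an E-box of the kind bound by the muscle factor HLH-1, TATAAA, the CArG box, and the words ACGCAG and, in addition, GACGCA and, last, CGAGAC, which are frequent in the thresholded peaks and were chosen on these data. Each was sought on both strands, and overlapping words were counted.
act-3, summit 654 bp upstream: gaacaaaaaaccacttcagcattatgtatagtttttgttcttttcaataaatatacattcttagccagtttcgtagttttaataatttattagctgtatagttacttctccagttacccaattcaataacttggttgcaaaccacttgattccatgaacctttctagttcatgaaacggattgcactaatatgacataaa
act-3, summit 1710 bp upstream: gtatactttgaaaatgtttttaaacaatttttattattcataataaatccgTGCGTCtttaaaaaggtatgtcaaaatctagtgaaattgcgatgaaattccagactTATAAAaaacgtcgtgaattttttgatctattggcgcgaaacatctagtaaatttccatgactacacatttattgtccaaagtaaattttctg
The window of the repeatable call held no searched word. The window farther upstream held GACGCA on the strand opposite to act-3, read here as TGCGTC, and also TATAAA. Of the same windows around all pooled calls, 3.72% held GACGCA and 28.1% held TATAAA. Among the 5 windows of pooled calls at act-3 and act-5 and in the cluster, it was the 1 with any of the words chosen on these data. Over all pooled calls, 3.59% of windows held ACGCAG and 4.53% held CGAGAC. The share with any of these words is larger than each of them alone and is not given here, so 1 of 5 windows is a description only.

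The call at act-4 sat just inside the gene. The gene act-4 (WBGene00000066) lies on the forward strand of chromosome X from 4960621 to 4964413. Its strongest pooled call had its summit at 4960749, 128 bp downstream of the annotated 5′ end and in the first intron of the longer transcript, with a signal of 26.0 and rank 3147. In replicate 1 the summit was 113 bp downstream with a signal of 19.9 and rank 1689. In replicate 2 the call within 200 bp had a signal of 8.32 and rank 16612, so the ranks differed 9.84-fold. The strongest call of replicate 2 within 1000 bp was another, 987 bp downstream, with a signal of 10.8 and rank 8441. A second pooled call 340 bp downstream had a signal of 15.2 and rank 21690, and replicate 2 had a call 340 bp upstream at rank 16494. Thus the pooled summits within 1000 bp of the 5′ end of act-4 were intronic, and the replicates differed in where the strongest call lay.

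The calls at act-5, the intestinal actin gene, were upstream of it. The gene act-5 (WBGene00000067) lies on the reverse strand of chromosome III from 13604412 to 13606066, and its annotated 5′ end is the start codon itself. The strongest pooled summit, at 13606876, was intergenic and 810 bp upstream, with a signal of 23.9 and rank 4698. In replicate 1 the summit was 866 bp upstream with a signal of 18.0 and rank 2821, and replicate 2 had no call within 200 bp. The pooled call nearest to the gene was 285 bp upstream, with a signal of 19.3 and rank 11054. It was matched in replicate 1 by a signal of 12.3 at rank 12930 and in replicate 2 by a signal of 6.15 at rank 28823. The second of these calls was therefore the one found in both replicates, close to the end of the list of replicate 2.

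**Figure D2:**
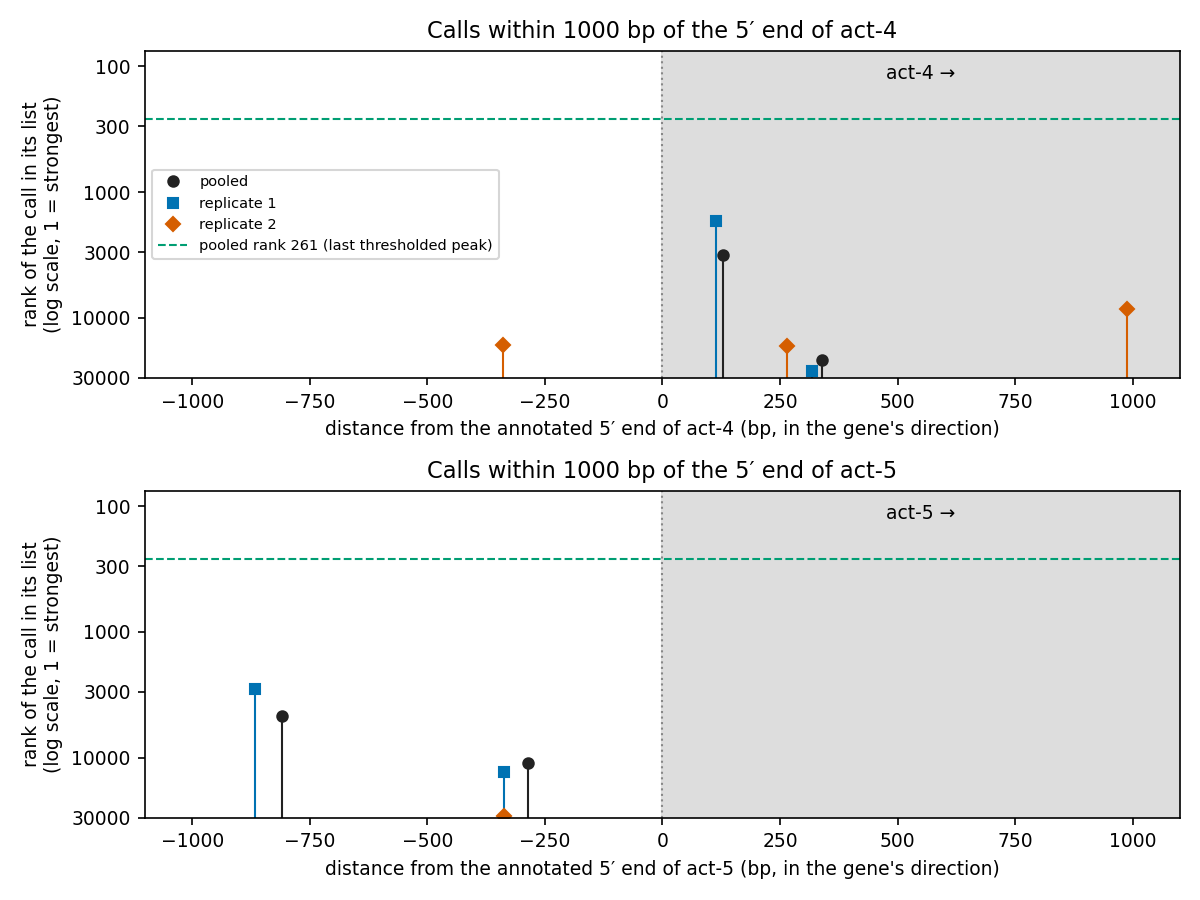
Calls within 1000 bp of the 5′ ends of act-4 (above) and act-5 (below), by distance from the 5′ end in the direction of the gene (horizontal, bp) and by rank within the list (vertical, log scale, strongest at the top); the grey block is the gene. At act-4 the calls of ranks 3147 (pooled) and 1689 (replicate 1) lie just inside the gene, and at act-5 the calls of ranks 4698 (pooled) and 2821 (replicate 1) lie 810 and 866 bp upstream with no call of replicate 2 beside them.

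The window of 200 bases around the strongest pooled summit of act-5 is given as for the cluster calls. It is chrIII:13606776-13606975 on the reverse strand, from the RefSeq sequence of ce11, 5′ to 3′ and with the searched words in capitals.
act-5, summit 810 bp upstream: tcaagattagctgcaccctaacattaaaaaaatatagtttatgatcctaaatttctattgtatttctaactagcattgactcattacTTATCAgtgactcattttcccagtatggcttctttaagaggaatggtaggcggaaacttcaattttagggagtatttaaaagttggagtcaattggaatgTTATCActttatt
The window held TGATAA at 2 places, on the strand opposite to the gene and so read as TTATCA. The window of the weaker act-5 call, 285 bp upstream, held TGATAA at 2 further places. Of the windows around all pooled calls, 18.6% held the word at any place. It also stood in the 300 bp before act-1 and act-2, so it was not particular to the intestinal gene. In the intestine GATA sites are known to be bound by ELT-2, a regulator of intestinal genes, but a match of letters is a description of these windows and not a site.

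By pooled rank the actin genes followed the order act-3 (2935), act-4 (3147) and act-5 (4698), with no call at act-2 and act-1. The ranks of the strongest call in the single replicates were 3636 and 4908 at act-3, 1689 and 8441 at act-4, and 2821 and 28823 at act-5. These ranges overlap, so neighbours in this order did not differ beyond the spread between replicates. Replicate 1 alone gave act-4 first, act-5 next and act-3 last, while replicate 2 gave act-3, act-4, act-2 and act-5. In the pooled list 8.41% of coding genes had a call as strong as that of act-4 or stronger, and 11.7% one as strong as that of act-5. For act-5 the shares were 7.22% in replicate 1 and 47.6% in replicate 2, and for act-4 they were 4.79% and 18.4%. The intestinal gene was thus not set apart from act-3 and act-4 by these values.

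**Figure D3:**
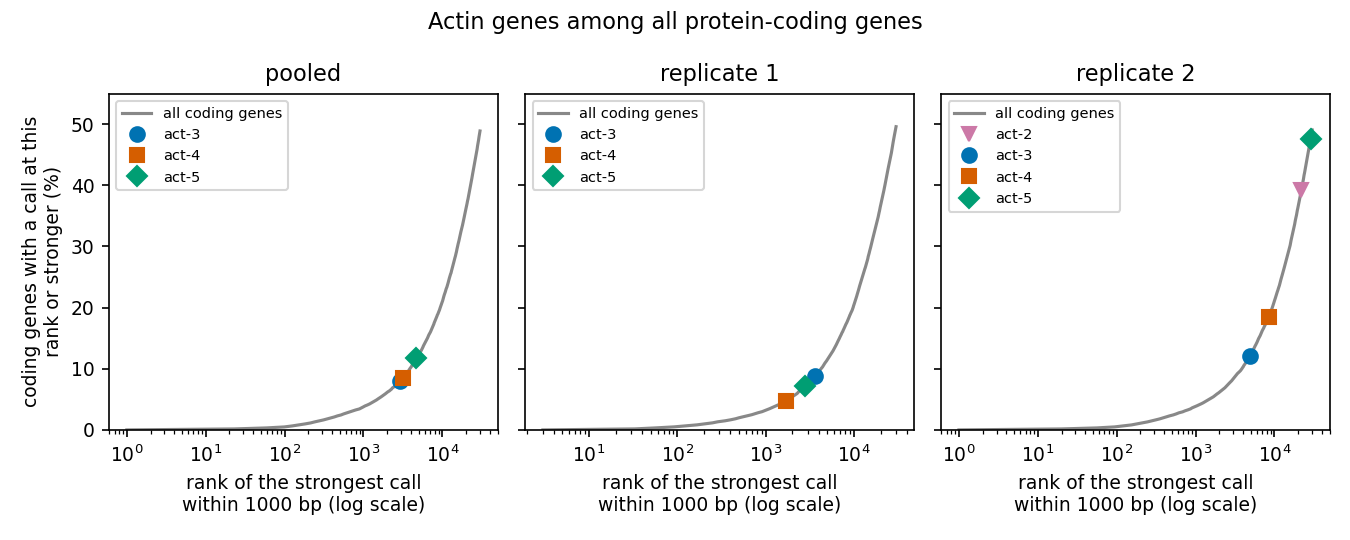
Rank of the strongest call within 1000 bp of each gene's 5′ end (horizontal, log scale) against the share of coding genes with a call at that rank or stronger (vertical, %), for the pooled list and each replicate; the line is all 19985 coding genes and the symbols are actin genes with a call. In the pooled list act-3, act-4 and act-5 lie between 8.06% and 11.7%, and in replicate 2 act-3 is at 12.1% and act-5 at 47.6%.

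The deposited q-value field, read as a score because its scale is not stated, placed the actin calls below the thresholded set, as their signals did. Over these calls the score rose with the signal, so it is not separate support. The 7 pooled calls at actin genes or in the cluster ran from 0.0341 to 0.340, whereas the lowest value in the thresholded set was 1.36. Their signals ran from 15.2 to 30.7, compared with a median of 17.5 over the pooled list and a lowest thresholded signal of 51.5. Of the 7 calls, 6 had a call within 200 bp in both replicates, with 1 call of replicate 2 serving for both act-4 calls, against 22.1% of all pooled calls and 48.6% of those with ranks above 1000 and up to 6000.

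The coding sequences of the actin genes are so alike that short reads cannot always be placed between them. Over 1128 aligned bases the coding sequences of act-1 and act-3 were identical, act-2 differed from either at 43 positions (96.2% identity), and act-4 differed from act-1 and act-3 at 66 (94.1%). The identity of act-5 to the other genes was between 82.5% and 85.2%. Stretches of 36 bases that occur at 1 place in the genome began at 2.84% of the coding positions of act-1, 5.14% of act-3, 60.3% of act-2, 82.7% of act-4 and 98.7% of act-5. With 100 bases the shares were 14.1% for act-1, 16.5% for act-3, 89.8% for act-2 and 98.5% for act-4, and each position of act-5 was unique. Among the calls within 1000 bp of an actin 5′ end or in the cluster, no summit lay in coding sequence in any list. Parts of act-4 and act-5 farther into the gene are not covered by this count. The share of summits in coding sequence over all genes is not given here. The read length and the treatment of reads with several matches are not given in the sources used here, so the lack of calls in the exons of act-1 and act-3 cannot be read as lack of binding. In the 1000 bp upstream of each gene, each of the 1000 stretches of 36 bases was unique, and this covers the call 654 bp upstream of act-3 and the 1000 bp before act-2 and act-1. The call 1710 bp upstream of act-3 lay outside these windows. When the intervals of the 7 pooled calls, of 344 bp each, were aligned to the genome with blastn without masking, 3 had no alignment elsewhere, namely the calls 654 bp upstream of act-3, beyond its 3′ end and 810 bp upstream of act-5. The interval of the call 1710 bp upstream of act-3 had 71 other alignments, the longest of 111 bp at 76.6% identity. That of the call 285 bp upstream of act-5 had 100 others, the longest of 69 bp at 78.3% identity. At act-4 the stronger call had 5 others, the longest of 61 bp at 96.7% identity, and the weaker had 1, of 49 bp at 81.6%. The part of this likeness in the strength of the calls was not tested.

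**Figure D4:**
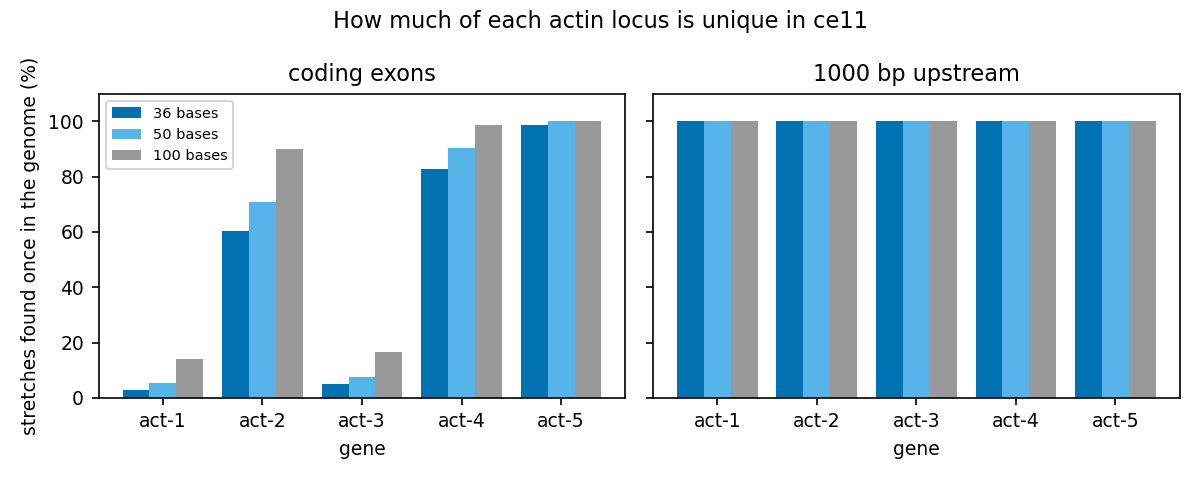
Share of start positions (vertical, %) from which a stretch of 36, 50 or 100 bases occurs at 1 place in the ce11 genome, in the coding exons (left) and the 1000 bp upstream (right) of each actin gene (horizontal). For 36 bases the coding exons of act-1 and act-3 stand at 2.84% and 5.14% and those of act-5 at 98.7%, and the bars of the upstream sequence are at the full height for each gene.

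Under the calls, GC content was close to that of the pooled list as a whole, except at the weaker act-5 call. In 200 bp around the summit it was 30.5% at the act-3 call (95% exact binomial interval over bases 24.2 to 37.4), 32.5% at the intronic act-4 call (26.1 to 39.5) and 31.5% at the call 810 bp upstream of act-5 (25.1 to 38.4). The mean was 31.5% ± 6.95 (SD, 30000 calls) over the pooled list and 40.2% ± 9.81 (SD, 261 peaks) at thresholded peaks. The call 1710 bp upstream of act-3 had 28.0% (21.9 to 34.8) and the call beyond its 3′ end 27.5% (21.4 to 34.2). At the weaker act-4 call it was 34.5% (27.9 to 41.5). The call 285 bp upstream of act-5 had 41.0% (34.1 to 48.2), higher than in 90.4% of pooled calls and close to the mean of thresholded peaks. Its window holds a run of alternating T and G, whose part in this value was not tested.

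The sequence directly upstream of the genes differed more than that under the calls. GC content of the 300 bp before the annotated 5′ end was 57.0% at act-4, higher than in 99.9% of the promoters of coding genes, and 48.3% at act-3, higher than in 98.6%. It was 39.0% at act-5, 33.3% at act-1 and 33.0% at act-2, beside a mean of 33.9% ± 5.54 (SD, 19973 promoters). The GC-rich promoters thus belonged to act-4 and act-3, and the strongest pooled summits lay outside both of these windows. The last 60 bases before each 5′ end are shown because 3 of them end in AG, the letters that end a splice acceptor, which are here a match of letters only. Many nematode transcripts are trans-spliced to a short leader, and transcription then starts upstream of the annotated end, which was not tested for these genes. The windows are chrV:11080992-11081051 (forward) for act-1, chrV:11078155-11078214 (reverse) for act-2, chrV:11074499-11074558 (reverse) for act-3, chrX:4960561-4960620 (forward) for act-4 and chrIII:13606067-13606126 (reverse) for act-5. They are 5′ to 3′ on the strand of the gene, from the RefSeq sequence of ce11, and capitals mark a final AG and TATAAA.
act-1: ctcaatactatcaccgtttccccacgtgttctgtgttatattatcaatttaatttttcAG
act-2: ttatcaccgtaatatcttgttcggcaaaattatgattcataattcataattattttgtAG
act-3: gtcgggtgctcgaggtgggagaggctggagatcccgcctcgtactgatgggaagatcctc
act-4: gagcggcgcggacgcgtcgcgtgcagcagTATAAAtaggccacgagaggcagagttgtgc
act-5: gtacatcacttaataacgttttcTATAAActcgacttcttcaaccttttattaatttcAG
The windows of act-1, act-2 and act-5 end in AG, as do 27.6% of all such windows of coding genes, and those of act-3 and act-4 do not. All windows lie before the outermost annotated 5′ end. The annotation has 3 such ends for act-3, 2 for act-4 and 1 for each of the others. The sequences before the inner ends of act-3 and act-4 are not described here. TATAAA stood 26 bp before the annotated end of act-4 and 32 bp before that of act-5, and 39.6% of promoters of 300 bp hold it on either strand. TGATAA was in the 300 bp of act-1, act-2 and act-5, against 30.7% of promoters. The CArG box (1.48% of promoters), CAGCTG (5.21%), ACGCAG (8.43%), GACGCA (8.73%) and CGAGAC (8.05%) were in none of the 5 promoters, which says only that these letters are not in these windows. The search for a final AG was chosen after the sequences were seen.

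Some of the listed genes whose products fold or assemble actin had a thresholded summit within 1000 bp. Of 14 genes of the chaperonin and prefoldin, 3 had a thresholded summit within 1000 bp, and of 40 genes for actin assembly and crosslinking 2 had one, compared with 1.43% of all coding genes. None of 26 sarcomere genes and none of 16 genes of the intestinal apical domain had one. A pooled call of any strength lay by 9 of 14 folding, 24 of 40 assembly, 12 of 26 sarcomere and 9 of 16 intestinal genes, beside 48.9% of all coding genes. The lists were compiled with earlier results of these data known, so these counts are a description and no test of a link to actin. For the actin genes themselves the count was 0 of 5, which lies near the share of all coding genes.

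Among the folding genes, pfd-1, a prefoldin subunit, had the strongest peak, with a pooled signal of 866 at rank 11 and a summit 319 bp upstream. Its ranks were 9 in replicate 1 and 16 in replicate 2. The summit was also 290 bp upstream of F01G4.6. The chaperonin subunit gene cct-1 had a pooled signal of 93.2 at rank 124, with ranks of 221 in replicate 1 and 104 in replicate 2, and its summit was nearer to mig-5 (169 bp) than to cct-1 (251 bp). The chaperonin subunit gene cct-8 had a signal of 88.0 at rank 127, with ranks of 484 and 107, and its summit was nearer to Y55F3AR.2 (215 bp) than to cct-8 (406 bp). Each of these 3 peaks thus lay between coding genes and closer to the neighbour.

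Of the assembly genes, wve-1, which encodes a WAVE protein that activates branching of actin filaments through the Arp2/3 complex, had a pooled signal of 98.6. Its summit was 641 bp upstream and also 608 bp upstream of R06C1.4, with ranks of 98 in replicate 1 and 134 in replicate 2. The gene cap-2, for a subunit of the protein that caps the growing end of filaments, had a signal of 94.7 at rank 120, with the summit 210 bp upstream and ranks of 165 and 100. It was the 1 companion gene of these 5 that was nearest to its own peak. Another coding gene also had its 5′ end within 1000 bp of that summit. The strongest pooled call of the sarcomere list was at deb-1, which encodes vinculin, with a signal of 38.7 at rank 532 but ranks of 282 in replicate 1 and 21321 in replicate 2. That of the intestinal list was at eps-8, for a protein of the tips of microvilli, with a signal of 36.9 at rank 618 and ranks of 1834 in replicate 1 and 1802 in replicate 2. The peaks at the 5 folding and assembly genes had ranks of 484 or better in each replicate. These genes were named for having a thresholded peak, so good ranks in both replicates go with that choice. The best rank of an actin gene within 1000 bp was 1689 in replicate 1 and 4908 in replicate 2. Genes chosen in this way give no comparison of the actin genes with the folding or assembly genes as groups.

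**Figure D5:**
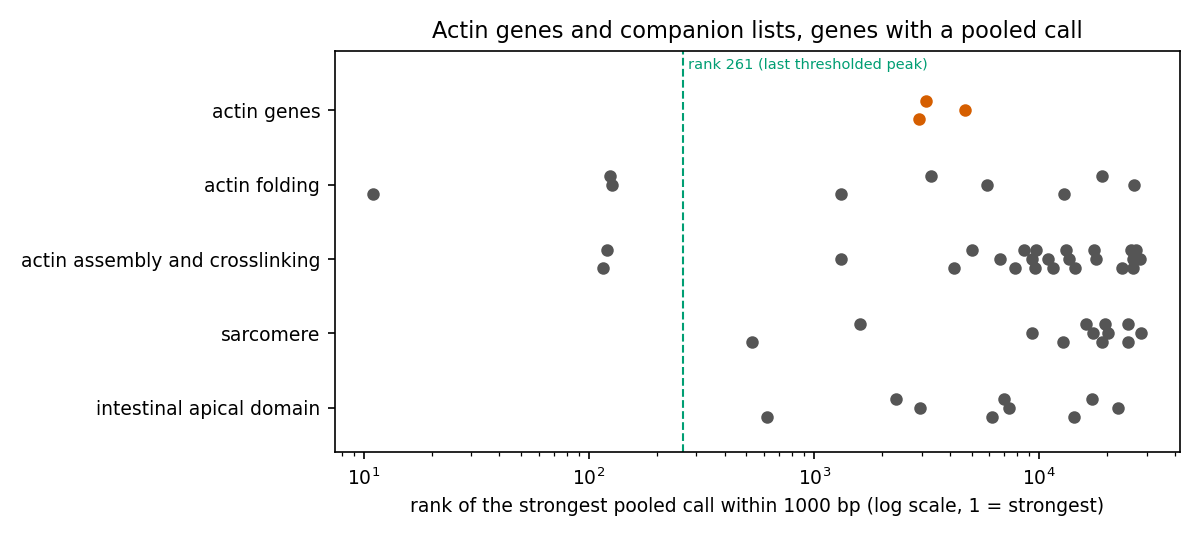
Rank of the strongest pooled call within 1000 bp (horizontal, log scale, strongest at the left) of each actin gene and each gene of the companion lists that had such a call; the dashed line is rank 261, the last thresholded peak. The 3 actin genes with a call lie at ranks 2935 to 4698, and 5 companion genes lie left of the line, led by pfd-1 at rank 11.

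The genes most like act-3 in the 3 lists were named by the sum of absolute differences in log10 rank over the pooled list and both replicates, among 4885 coding genes with a call in each. They were cpsf-3 on chromosome IV (sum 0.19, ranks 2730, 3940 and 6527 in the pooled list, replicate 1 and replicate 2), ugtp-1 on III (0.20) and Y94H6A.5 on IV (0.21). No actin gene was among them, but only act-4 and act-5 could have been, since act-1 and act-2 had no pooled call. Their absence among so few names says nothing about the family.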

How the data were processed

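ChIP-seq calls of 2 biological replicates of 1 group were used as deposited on build ce11. Per the deposited file notes, the authors called each list from alignments and 1 control file shared by the replicates, and derived the thresholded set from the pooled and replicate lists by the irreproducible discovery rate procedure. The aligner, caller, antibody details and threshold: not given in the sources used here. Per call, the deposited signal value has a scale of its own in each list, so calls were ranked within a list, and the q-value field, deposited without a stated scale, was read as a score. Each list ended at 30000 calls, so depth and precision are unknown. Lists on ce10 were not used because no annotation of that build was at hand.

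A summit (interval start plus the deposited offset, 1-based) was assigned to each gene whose outermost 5′ end in the Ensembl annotation lay within 1000 bp. The cluster was taken with 1000 bp on each side. Calls of different lists were matched within 200 bp. Sequences came from the RefSeq genome of the same assembly. The sequence at the act-4 call is not reported here. Binomial intervals are exact (Clopper-Pearson, 95%) and cover counting error over bases. Gene assignment was tested on simulated data with planted calls. These lay within 1000 bp of a 5′ end and were stronger than all other calls, so the test checks the code only. Python 3.11.15, numpy 2.4.6, pandas 2.3.3, scipy 1.17.1, matplotlib 3.10.9 and blastn 2.17.0 were used. The members and lists were chosen with earlier results of these data known. Named were the 5 genes, neighbours nearer to a call, companion genes with a thresholded summit or the best rank of their list, and the 3 genes most like the best ranked actin gene. The 29 alternatives changed the distance, the 5′ ends, the way of counting a call, the set of calls, the window for GC content and the replicate used.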

Additional observations from a re-analysis of the deposited data

How the results depend on the processing

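With 1 replicate left out, the rank of the strongest call ranged from 3636 to 4908 at act-3, from 1689 to 8441 at act-4 and from 2821 to 28823 at act-5, with replicate 1 giving the better rank each time. At act-3 the rank was 1433 with a limit of 2000 bp, since the call between act-3 and act-2 then counted, and 1682 when the interval had to overlap the gene or the 1000 bp upstream. At 500 bp act-3 had no call and the rank at act-5 was 11054, against 4698 at 1000 bp, and act-1 and act-2 had no pooled rank at 1000 bp. The number of actin genes with a thresholded summit was 0 in all 8 alternatives tried. The nearest thresholded summit was 37660 bp from an actin gene, so the alternatives that kept the thresholded set could give no other count. The number with a pooled call ranged from 2 to 4. Folding genes with a thresholded summit numbered 2, without cct-8, when replicate 2 was left out and the 261 strongest calls of replicate 1 were used. Assembly genes with a thresholded summit fell to 1 at 500 bp, without wve-1, and among the strongest 1000 pooled calls the sarcomere list gained 1 (deb-1) and the intestinal list 1 (eps-8). GC content at the calls stayed within its interval in windows of 100 and 400 bp. No paired analysis was possible because there was 1 group.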
